A study of Mus musculus with 36 samples.

Results

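The acute-phase genes Saa1, Saa2, Saa3, Saa4, Orm1, Orm2, Lcn2, Apcs, Serpina3n and Socs3 were chosen by symbol from a liver count table of 38283 genes, and all 10 were found in it. They were followed in liver RNA from 36 male C57Bl/6J mice, maintained on chow to 16 weeks of age. Wild-type mice were compared with mice labelled PIK3R1(Y657X) mutant, which are heterozygous knock-in animals (Pik3r1 WT/Y657*). The allele is present throughout the body, so that effects arising in the liver and effects reaching it from other tissues cannot be told apart in these samples. Each genotype was sampled fed ad libitum, after a 16 h fast, and after a 16 h fast followed by 6 h of refeeding, with 6 mice in each of the 6 groups. Gene counts sum both alleles and so cannot check the genotype labels. Mice are named as in their labels, with ALC for the fed, ONF for the fasted and RF6 for the refed state, WT or MT for the genotype, and a number. All comparisons below are between different mice, and the fed wild-type mice enter the comparison of genotypes in the fed state, the fasting response of wild-type mice and the difference in fasting response between genotypes alike.

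The acute-phase response is the change in plasma protein synthesis by which hepatocytes react to injury, infection or inflammation. Interleukin-6 acts through its receptor and STAT3, and interleukin-1 and tumour necrosis factor act through NF-kB, and C/EBP factors take part at many of the same promoters. Saa1 and Saa2 encode the inducible serum amyloid A proteins carried on high-density lipoprotein. Saa3 is a related inducible gene also expressed outside hepatocytes, and Saa4 is the member regarded as constitutively expressed. Orm1 and Orm2 encode orosomucoid (alpha-1-acid glycoprotein), Lcn2 encodes the siderophore-binding lipocalin 2, Apcs encodes serum amyloid P component, the pentraxin that is the classical acute-phase reactant of the mouse, and Serpina3n encodes a serine protease inhibitor. Socs3 is the feedback inhibitor of interleukin-6 signalling and stands apart from the secreted proteins.

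The 4 Saa genes lie together on chromosome 7 (GRCm38, GENCODE M21), Saa3 from 46711998 to 46715700, Saa4 from 46727998 to 46732603, Saa1 from 46740497 to 46742980 and Saa2 from 46751790 to 46754313. Orm1 (63344560 to 63348163) and Orm2 (63362449 to 63365878) are neighbours on chromosome 4, Lcn2 lies on chromosome 2, Apcs on chromosome 1, Serpina3n on chromosome 12 and Socs3 on chromosome 11. The sequences upstream of the 4 Saa genes and Orm2 are shown because these neighbouring and related genes differ in their matches to the C/EBP motif given below. RefSeq promoter sequences on GRCm38.p6 were found for 9 of the 10 genes, the exception being Orm1. The 250 bases before each start were searched on both strands for a C/EBP motif (TTNNGNAA or its reverse complement TTNCNNAA), a STAT3 motif (TTCNNNGAA) and an NF-kB motif (GGGA and TCC with any 3 bases between them, or the reverse complement). Positions −250 to −45 are printed 5′ to 3′ on the strand of the gene, with matches to the C/EBP motif in capitals. They lie at chr7:46743025-46743230 (Saa1, minus strand), chr7:46751583-46751788 (Saa2, plus), chr7:46715721-46715926 (Saa3, minus), chr7:46732648-46732853 (Saa4, minus) and chr4:63362199-63362404 (Orm2, plus).
Saa1: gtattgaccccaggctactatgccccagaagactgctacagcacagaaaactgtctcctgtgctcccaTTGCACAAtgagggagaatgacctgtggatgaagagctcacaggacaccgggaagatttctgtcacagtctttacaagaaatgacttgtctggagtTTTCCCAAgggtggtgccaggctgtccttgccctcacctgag
Saa2: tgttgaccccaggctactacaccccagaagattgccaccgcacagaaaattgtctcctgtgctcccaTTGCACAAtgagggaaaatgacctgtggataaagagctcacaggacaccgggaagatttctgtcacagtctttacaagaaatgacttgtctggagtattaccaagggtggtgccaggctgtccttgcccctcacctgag
Saa3: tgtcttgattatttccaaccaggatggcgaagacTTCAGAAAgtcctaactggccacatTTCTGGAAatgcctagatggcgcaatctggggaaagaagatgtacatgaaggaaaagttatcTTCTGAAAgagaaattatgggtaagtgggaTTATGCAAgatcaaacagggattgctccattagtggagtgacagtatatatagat
Saa4: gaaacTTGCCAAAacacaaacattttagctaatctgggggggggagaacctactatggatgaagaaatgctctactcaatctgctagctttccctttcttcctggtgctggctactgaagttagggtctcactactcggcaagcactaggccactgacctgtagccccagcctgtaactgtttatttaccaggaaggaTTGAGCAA
Orm2: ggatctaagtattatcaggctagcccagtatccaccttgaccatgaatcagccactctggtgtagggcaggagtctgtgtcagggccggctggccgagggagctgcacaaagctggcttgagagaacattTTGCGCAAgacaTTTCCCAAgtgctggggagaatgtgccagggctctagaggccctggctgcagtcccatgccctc
Saa1 and Saa2 lie close together in opposite orientation, and 238 of 251 aligned positions of their upstream sequences were identical (94.8%), whereas the other pairs of Saa genes shared 42.6% to 48.9%. Both held TTGCACAA, ending 175 bases before the start in Saa1 and 176 bases before it in Saa2. Saa1 also held TTTCCCAA at −86 to −79, where Saa2 had no match. Lcn2, which is not printed because an annotated transcript starts farther upstream, held TTGCTCAA at −216 to −209. A C/EBP match was found in 7 of the 9 genes, against 36.8% of 32536 RefSeq promoters, a STAT3 match in 2 (Apcs and Socs3), against 7.04%, and an NF-kB match in 0 of 9, against 3.87%. An annotated transcript of Socs3 also starts farther upstream than the bases searched. For Apcs, Serpina3n and Socs3 a stretch just after the RefSeq start was not found in the GENCODE transcripts. These matches describe letters in a short window and not binding.

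Counts per mouse totalled 8839488 to 19542775, and all 10 genes passed the filter on low counts that left 13945 genes. The lowest count of any member in any mouse was 14 (Lcn2). Markers of hepatocytes were at high levels throughout (for Alb, a median of 50044 counts scaled to library size, CPM, with libraries scaled by edgeR's TMM). In bulk liver, fewer cells of a type and less RNA per cell cannot be told apart.

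Per length of mature transcript, Saa1 and Saa2 had the highest medians of the members in fed wild-type livers, and Saa3 the lowest but one. The median level was 1596 CPM per kilobase for Saa1, 1467 for Saa2 and 1065 for Orm1, followed by Serpina3n at 189, Saa4 at 187, Apcs at 79.4, Orm2 at 68.2, Lcn2 at 63.5, Saa3 at 24.4 and Socs3 at 4.62. In fed Pik3r1 WT/Y657* livers Orm1 came first at 612 CPM per kilobase, and Saa1 and Saa2 were at 102 and 79.2. Over all 36 mice Orm1 had the highest median, 509 CPM per kilobase, against 48.4 for Saa1. The order of neighbouring members was not tested, and the ranges of Saa1, Saa2 and Orm1 in fed wild-type mice overlapped on this scale.

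The genes differed in how widely they ranged. From the lowest to the highest of the 36 mice, Saa2 spanned 1288-fold (3.70 to 4766 CPM), Lcn2 515-fold, Saa1 494-fold, Saa3 346-fold and Orm2 116-fold. Socs3 spanned 13.1-fold, and Apcs, Saa4, Orm1 and Serpina3n between 6.07-fold and 9.94-fold. The highest value belonged to the fed wild-type mouse ALC_WT_847 for every member except Apcs, which was highest in the refed Pik3r1 WT/Y657* mouse RF6_MT_898 at 269 CPM. Within groups, the biological coefficient of variation (the spread between mice beyond counting error, as estimated by edgeR) was 0.29 for Saa4, 0.31 for Serpina3n, 0.42 for Apcs, 0.46 for Orm1 and 0.54 for Socs3, and 0.88 for Saa3, 1.13 for Orm2, 1.25 for Saa1, 1.26 for Saa2 and 1.28 for Lcn2. The common value over all genes was 0.18, so every member varied more than the typical gene.

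**Figure D1:**
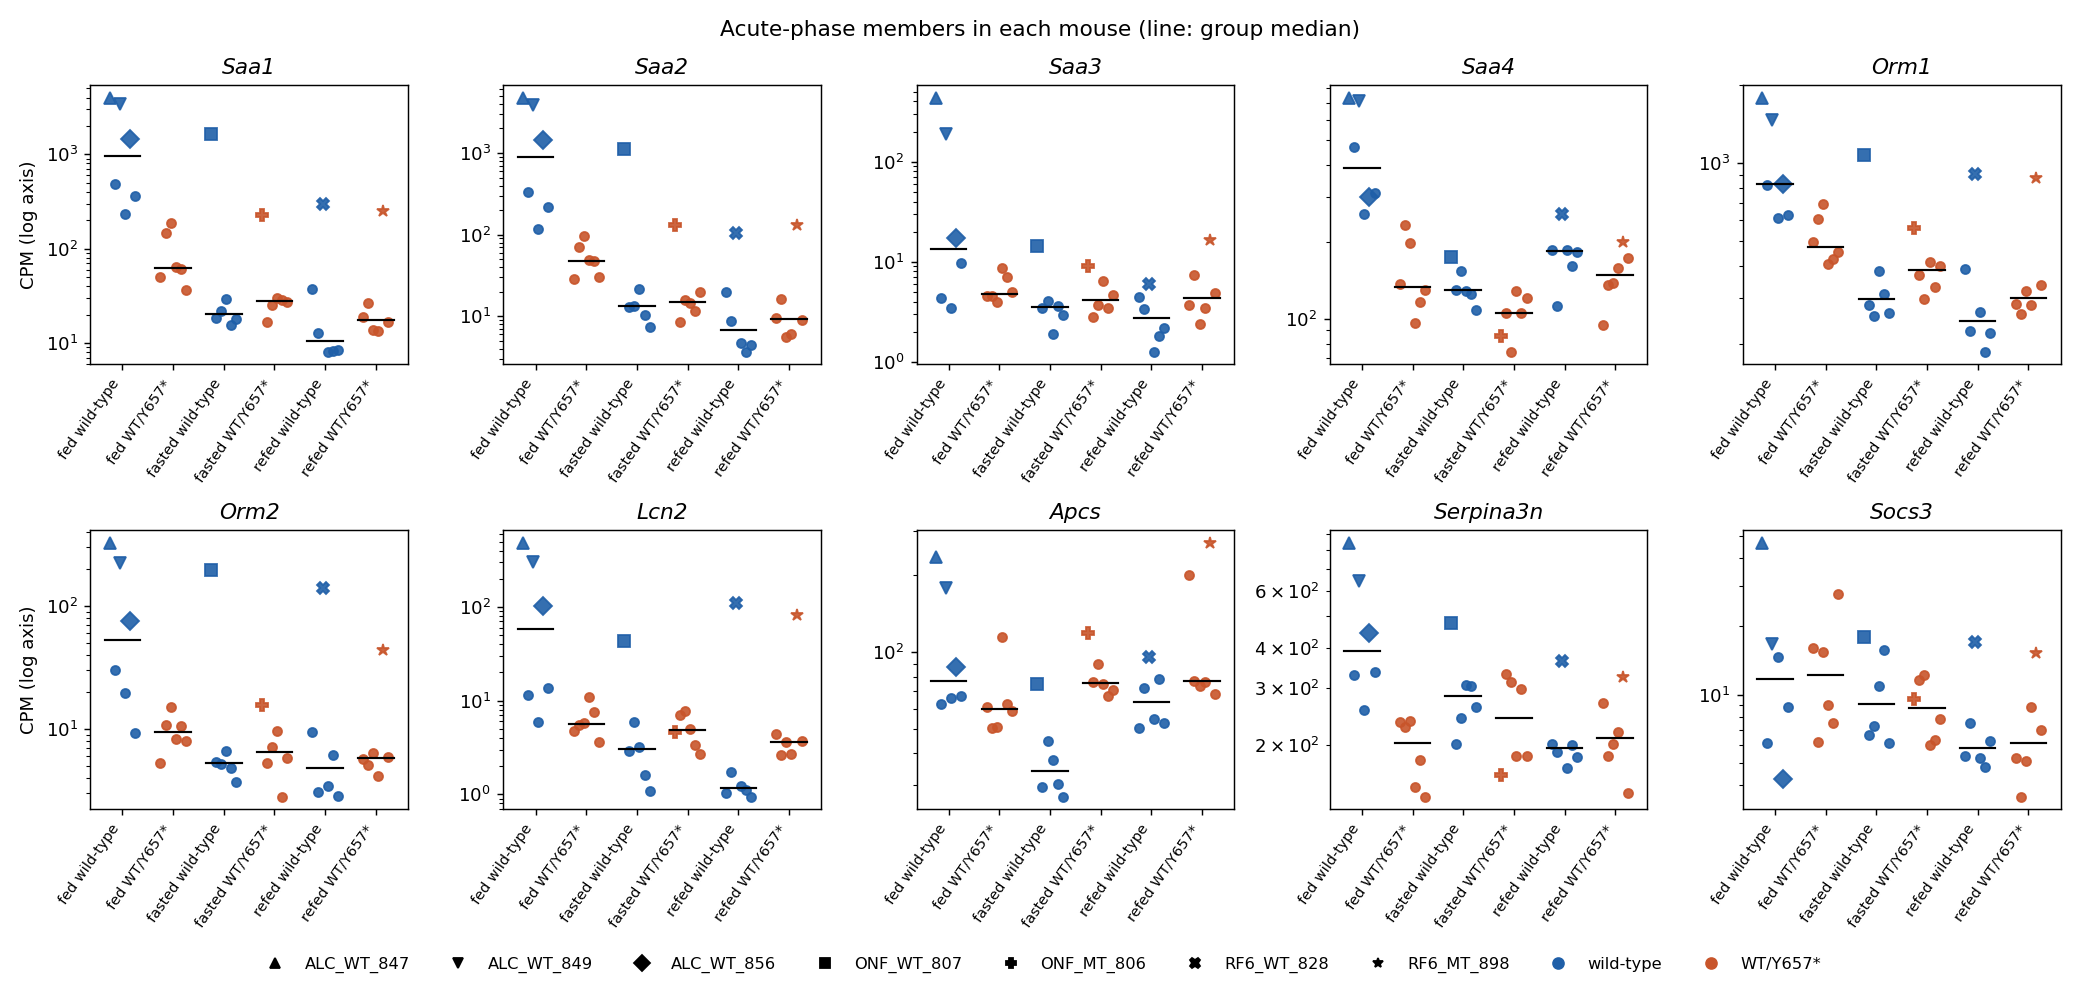
Level of each of the 10 genes in every mouse (CPM, log scale), by feeding state and genotype, with a bar at each group's median. The fed wild-type mice ALC_WT_847 and ALC_WT_849 are the highest of their group for all 10 genes, and single mice stand above the rest in the fasted and refed groups.

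Single mice stood above the rest of their groups. In the fed wild-type group mouse ALC_WT_847 was highest and mouse ALC_WT_849 second for all 10 genes. In mouse ALC_WT_847 the 10 genes took 1.28% of all counts and in mouse ALC_WT_849 they took 1.005%, whereas the median of the group was 0.358%. The fasted wild-type mouse ONF_WT_807, the refed wild-type mouse RF6_WT_828 and the refed Pik3r1 WT/Y657* mouse RF6_MT_898 were each highest in their group for all 10 genes. The members took 0.479% of counts in mouse ONF_WT_807, 0.233% in mouse RF6_WT_828 and 0.240% in mouse RF6_MT_898. The fasted Pik3r1 WT/Y657* mouse ONF_MT_806 was highest in its group for 6 of the 10 and lowest for Serpina3n. In the fed Pik3r1 WT/Y657* group the members took 0.0903% to 0.156% of counts, and different mice were highest for different genes.

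The inducible Saa genes showed this most plainly. Saa1 in fed wild-type livers was at 3994 CPM in mouse ALC_WT_847, 3399 in mouse ALC_WT_849, 1457 in mouse ALC_WT_856, 487 in mouse ALC_WT_848, 365 in mouse ALC_WT_860 and 236 in mouse ALC_WT_850. Saa1 in fed Pik3r1 WT/Y657* livers was at 36.8 to 186 CPM with a median of 62.3, so the lowest wild-type mouse stood above the highest of these. The means were 1656 ± 1649 CPM (SD, n = 6) and 90.2 ± 60.3 CPM (n = 6). In fasted wild-type mice Saa1 was at 1663 CPM in mouse ONF_WT_807 and at 15.5 to 29.3 in the other 5. In refed wild-type mice it was at 295 CPM in mouse RF6_WT_828 and at 8.09 to 37.6 in the others. In Pik3r1 WT/Y657* mice it was at 228 CPM in the fasted mouse ONF_MT_806 and at 16.9 to 29.6 in the others, and at 249 CPM in the refed mouse RF6_MT_898 and at 13.4 to 26.7 in the others. Saa2 gave the same picture, with 4766 CPM in mouse ALC_WT_847, 3875 in mouse ALC_WT_849 and 1130 in mouse ONF_WT_807, and 3.70 to 21.4 in all other fasted and refed mice but ONF_MT_806, RF6_WT_828 and RF6_MT_898, in which it was at 132, 106 and 130.

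Saa3 was counted in every mouse but was far higher in mice ALC_WT_847 and ALC_WT_849 than in the rest. It was at 437 CPM in mouse ALC_WT_847 and 187 in mouse ALC_WT_849, and the next highest fed wild-type mouse, ALC_WT_856, was at 17.4. Elsewhere the highest level was 16.7 CPM, in mouse RF6_MT_898, and the highest of the fed Pik3r1 WT/Y657* mice was at 8.58. Saa4 stood less far above the rest in these mice, with 735 CPM in mouse ALC_WT_847 and 710 in mouse ALC_WT_849 against 258 to 471 in the other 4 fed wild-type mice. Saa4 differed from the other Saa genes in that mouse ONF_WT_807 was at 174 CPM, close to the next mouse of its group at 154.

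The orosomucoid genes and Lcn2 were also high in these mice, but in differing proportion. Orm1 was at 1787 CPM in mouse ALC_WT_847, 1468 in mouse ALC_WT_849, 1074 in mouse ONF_WT_807, 905 in mouse RF6_WT_828 and 874 in mouse RF6_MT_898, against 187 to 832 in all others. Orm2 was far below Orm1 in every mouse, and its share was raised where the members were high. The ratio of Orm2 to Orm1 was 0.184 in mouse ALC_WT_847, 0.183 in mouse ONF_WT_807, 0.155 in mouse RF6_WT_828 and 0.153 in mouse ALC_WT_849, 0.0906 in mouse ALC_WT_856 and 0.0501 in mouse RF6_MT_898, and at most 0.0372 in the other mice. The ratio of Saa2 to Saa1 was 1.19 in mouse ALC_WT_847, 1.14 in mouse ALC_WT_849 and 0.991 in mouse ALC_WT_856, and 0.359 to 0.832 in the other mice. Lcn2 was at 486 CPM in mouse ALC_WT_847 and 300 in mouse ALC_WT_849, at 110 in mouse RF6_WT_828 and 82.2 in mouse RF6_MT_898, but at 43.4 in mouse ONF_WT_807. Relative to Saa1, Lcn2 stood at 0.371 in mouse RF6_WT_828 and 0.331 in mouse RF6_MT_898, against 0.122 in mouse ALC_WT_847, 0.0883 in mouse ALC_WT_849, 0.0261 in mouse ONF_WT_807 and 0.0202 in mouse ONF_MT_806. Mice that were high for Saa1 thus differed in how much Lcn2 they held, and these ratios are given as a description without a test. Ratios of this size were also found where both genes were low. The highest ratio of Lcn2 to Saa1 was 0.414, in mouse ONF_MT_826, with Saa1 at 16.9 CPM. The median ratio of the refed Pik3r1 WT/Y657* group was 0.229. Saa1 and Saa2 are near-identical in sequence, and reads that match both could have been divided between them in counting.

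**Figure D2:**
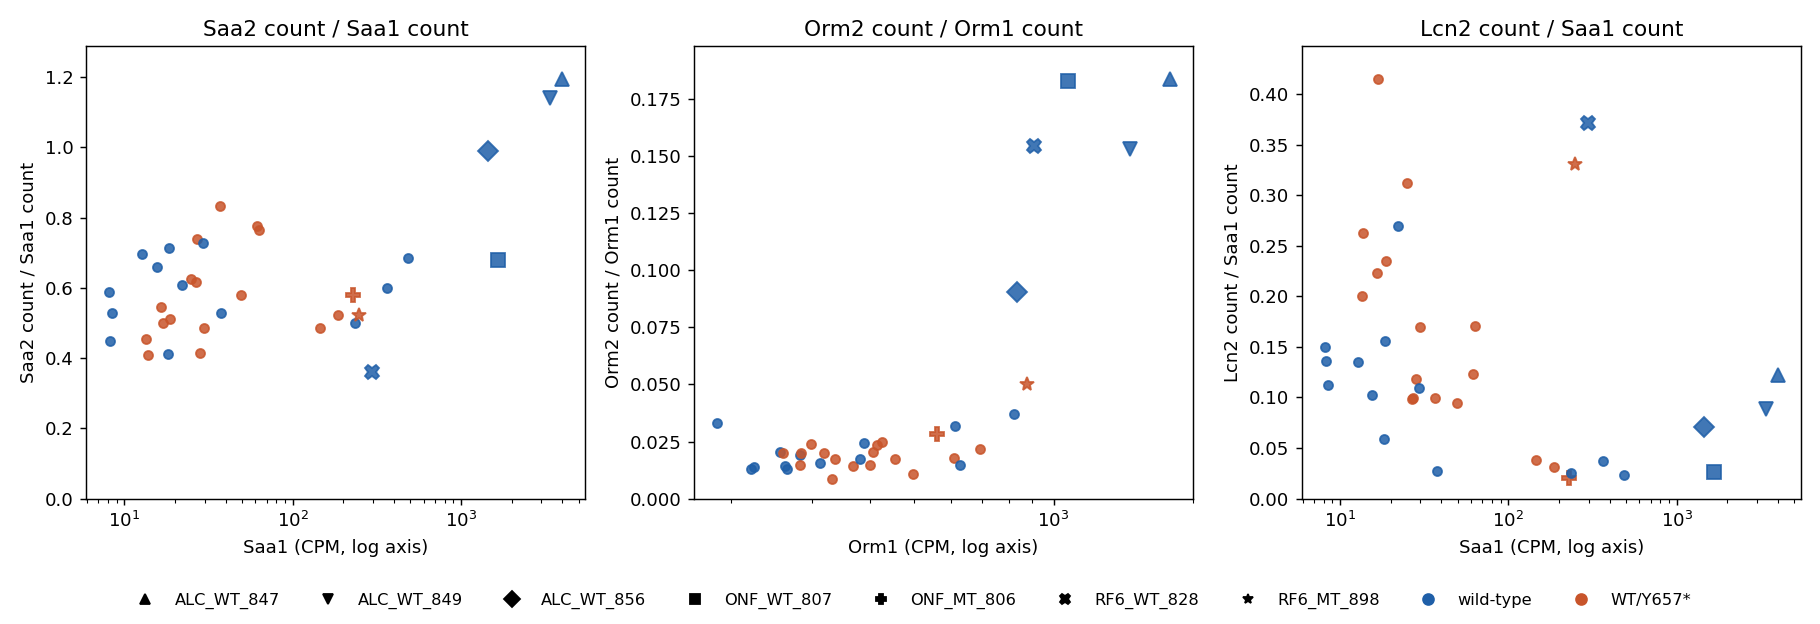
Ratio of Saa2 to Saa1 and of Lcn2 to Saa1 against Saa1, and of Orm2 to Orm1 against Orm1, in each of the 36 mice (ratios of counts on linear axes, levels in CPM on log axes), coloured by genotype, with 7 mice marked by symbol. Mice ALC_WT_847 and ALC_WT_849 combine the highest Saa1 with Saa2 above Saa1, and RF6_WT_828 and RF6_MT_898 have an Lcn2 to Saa1 ratio of 0.371 and 0.331 at lower Saa1. The highest Lcn2 to Saa1 ratio, 0.414, is in mouse ONF_MT_826, which is low for both genes.

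Apcs, Serpina3n and Socs3 followed less closely. Apcs was at 236 CPM in mouse ALC_WT_847 and 178 in mouse ALC_WT_849, against 62.3 to 87.2 in the other fed wild-type mice. The fed Pik3r1 WT/Y657* mouse ALC_MT_866 held Apcs at 114 CPM, against 50.4 to 62.2 in the rest of its group. In the refed Pik3r1 WT/Y657* group Apcs was at 269 CPM in mouse RF6_MT_898 and 201 in mouse RF6_MT_810, and at 68.7 to 76.8 in the others. Serpina3n ranged from 258 to 844 CPM in fed wild-type mice and from 139 to 238 in fed Pik3r1 WT/Y657* mice, with no overlap. Socs3 was low in all mice. It was at 46.7 CPM in mouse ALC_WT_847, but at 16.7 in mouse ALC_WT_849 and 4.27 in mouse ALC_WT_856, and fed Pik3r1 WT/Y657* mice ranged from 6.18 to 27.9, so the groups overlapped.

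Genotypes were first compared in the fed state. Of the 10 genes 4 passed the test, all as lower in Pik3r1 WT/Y657* mice, where 2.37% of all genes tested were called and 1.15% were called as lower (edgeR quasi-likelihood test, two-sided, Benjamini-Hochberg adjustment over 13945 genes, threshold 0.05). Saa4 was at 464 ± 213 CPM (SD, n = 6) in wild-type mice and 152 ± 52.6 in Pik3r1 WT/Y657* mice, and fell by 1.61 on the log2 scale (standard error 0.25, adjusted p = 0.00133). Serpina3n was at 476 ± 225 CPM and 195 ± 44.9. Saa3 fell by 4.29 (standard error 0.85, adjusted p = 0.00897), Serpina3n fell by 1.29 (standard error 0.27, adjusted p = 0.0115) and Saa2 fell by 5.06 (standard error 1.37, adjusted p = 0.0430). Lcn2 stood at −4.60 (standard error 1.28) and missed the threshold with an adjusted p of 0.050003. Saa1 was at −4.20 (adjusted p = 0.0753), Orm2 at −3.56 (adjusted p = 0.0752), Orm1 at −0.996 (adjusted p = 0.168), Apcs at −0.81 (adjusted p = 0.230) and Socs3 at −0.25 (adjusted p = 0.823), none of them past the threshold. All 10 fitted log2 fold changes were negative, although the median of Socs3 was slightly higher in Pik3r1 WT/Y657* mice. The median log2 fold change of the 10 was −2.59, against 0.01 over all genes. For Saa1, Saa2, Saa4 and Serpina3n the 6 Pik3r1 WT/Y657* mice lay below all 6 wild-type mice, a separation in that direction seen in 0.574% of all genes.

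These fold changes compare means, which the highest mice raise. The ratio of group medians, wild-type over Pik3r1 WT/Y657*, was 18.5 for Saa2, 15.6 for Saa1, 10.3 for Lcn2, 5.59 for Orm2, 2.93 for Saa4, 2.83 for Saa3, 1.92 for Serpina3n, 1.74 for Orm1, 1.29 for Apcs and 0.964 for Socs3. The ratio of group means was larger for every member, at 33.3 for Saa2 and 19.6 for Saa3. Without mice ALC_WT_847 and ALC_WT_849, left out after their values were seen, 1 member remained called, Saa4 (log2 fold change −1.14, adjusted p = 0.0391), and Saa3 was at −0.63 (adjusted p = 0.618), Saa2 at −3.30 (adjusted p = 0.217) and Serpina3n at −0.81 (adjusted p = 0.137). Fitted to the 12 fed libraries alone, 0 members were called by edgeR, with adjusted p from 0.0763 upward, against 4 called in the fit to all libraries. In that fit to all libraries 9 members had an unadjusted p under 0.05, and DESeq2 called 7. Shares of all genes by unadjusted p or by DESeq2 are not given here, so such counts cannot be set against a background. By the exact permutation test on log2 CPM, Saa1, Saa2, Saa4 and Serpina3n had p = 0.00216, the smallest that 924 arrangements of 6 against 6 mice allow, and 0.203 after adjustment over all genes. That was the smallest adjusted p of any gene in this comparison, so the permutation test called 0 of all genes.

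**Figure D3:**
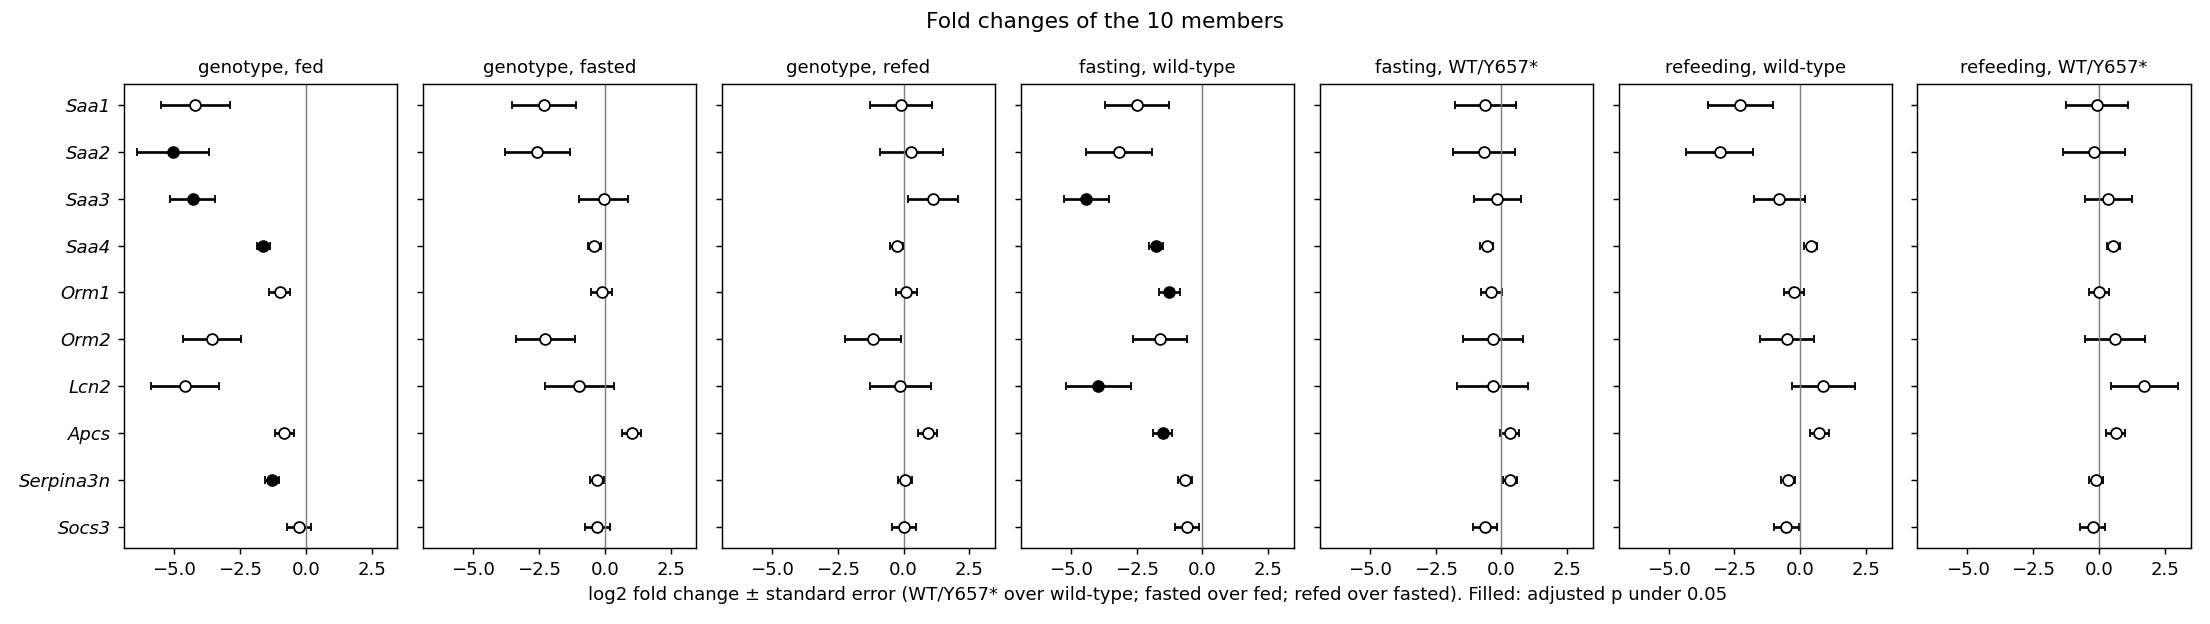
Log2 fold change of each of the 10 genes in the comparisons of genotypes and of feeding states, with the standard error from edgeR as a bar and filled points where the adjusted p was under 0.05. The fed comparison of genotypes and the fasting response of wild-type mice hold the called decreases, and both use the fed wild-type mice.

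Mouse numbers were not spread evenly over the fed genotypes. The run from ALC_WT_847 to ALC_WT_850 held wild-type mice only and the run from ALC_MT_866 to ALC_MT_869 Pik3r1 WT/Y657* mice only, whereas the run from ALC_WT_856 to ALC_WT_860 held 2 wild-type and 3 Pik3r1 WT/Y657* mice. What a run of numbers shares (litter, cage or day) is not given in the labels. Within the run from ALC_WT_856 to ALC_WT_860, where both genotypes can be set side by side, Saa1 was at 365 to 1457 CPM in wild-type mice and 49.5 to 186 in Pik3r1 WT/Y657* mice, a difference of mean log2 CPM of −2.73. Saa2 differed by −3.27, Lcn2 by −2.79, Saa3 by −1.54, Orm2 by −1.46, Serpina3n by −0.73 and Saa4 by −0.72, and Socs3 by 0.89. For Saa1, Saa2, Saa3, Saa4, Lcn2, Apcs and Serpina3n the wild-type and Pik3r1 WT/Y657* mice of this run did not overlap, all with wild-type higher, as for 10.2% of all genes. This sets 2 mice against 3, with no test. With runs of numbers as a covariate 0 members were called by edgeR (adjusted p = 0.999 for each), and the log2 fold change was −2.85 for Saa1 and −0.69 for Saa4. Only the run from ALC_WT_856 to ALC_WT_860 holds both genotypes, so in that fit the fed comparison rests on the same 2 and 3 mice. The adjusted p is the same for every member and does not tell them apart, and no conclusion is drawn from the 0.

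After the fast, 0 of the 10 genes were called between genotypes by edgeR's quasi-likelihood test, where 13.1% of all genes were, and 2 had an unadjusted p under 0.05. Apcs was higher in fasted Pik3r1 WT/Y657* mice, at 67.5 to 118 CPM against 27.1 to 75.0, a log2 difference of 1.03 that missed the threshold (standard error 0.37, adjusted p = 0.0620). It passed with edgeR's likelihood ratio test (adjusted p = 0.0366), with DESeq2 (0.0333), in the fasted libraries alone (0.0295), and without mouse ONF_WT_807 (1.30, adjusted p = 0.0243). In both series of mouse numbers Apcs was higher, by 1.01 and 1.17 in mean log2 CPM. Saa1, Saa2 and Orm2 had negative fold changes of −2.31, −2.56 and −2.25 in this state (adjusted p = 0.220, 0.177 and 0.185), although their medians were higher in Pik3r1 WT/Y657* mice by 1.37-fold, 1.13-fold and 1.22-fold. Without mice ONF_MT_806 and ONF_WT_807 they were at 0.30, 0.11 and 0.27 (adjusted p from 0.907 to 0.970). After refeeding 0 of the 10 were called, where 0.0287% of all genes were, and 1 had an unadjusted p under 0.05 (Apcs, log2 fold change 0.93, adjusted p = 0.390). DESeq2 called 0 members in the refed state.

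Fasting was then compared with feeding within each genotype. Fed and fasted mice came from separate series of mouse numbers, so that feeding state and what a series shares cannot be told apart here. In wild-type mice 5 of the 10 genes passed the test, all as lower after the fast, where 17.5% of all genes were called as lower. Saa4 fell by 1.76 on the log2 scale (standard error 0.25, adjusted p = 1.57e-06), from a median of 391 to 129 CPM with no overlap between the groups, a separation in that direction seen in 9.70% of all genes. Saa3 fell by 4.41 (adjusted p = 0.000202), Lcn2 fell by 3.96 (adjusted p = 0.0140), Apcs fell by 1.51 (adjusted p = 0.00201) and Orm1 fell by 1.26 (adjusted p = 0.0143). Saa2 was at −3.17 (adjusted p = 0.0524), Serpina3n at −0.67 (adjusted p = 0.0533), Saa1 at −2.49 (adjusted p = 0.121), Orm2 at −1.61 (adjusted p = 0.236) and Socs3 at −0.59 (adjusted p = 0.357). The count turned on single mice in both groups. Without mouse ONF_WT_807 it was 9 of 10, with Saa1 at −6.33 (adjusted p = 0.000275) and Saa2 at −7.10 (adjusted p = 0.000102), and Socs3 alone did not pass. Without mouse ALC_WT_847 it was 3, and without both ALC_WT_847 and ALC_WT_849 it was 1, Saa4 at −1.29 (adjusted p = 6.61e-05), with Orm2 at 0.17 and Socs3 at 0.34. With the high mice of both states left out (ALC_WT_847, ALC_WT_849, ONF_MT_806 and ONF_WT_807) it was 7, among them Saa1 at −4.95 (adjusted p = 0.00119), Saa2 at −5.34 (adjusted p = 0.000379) and Orm2 at −2.70 (adjusted p = 0.0442), and Lcn2, Serpina3n and Socs3 did not pass. All of these mice were chosen after their values were seen.

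In Pik3r1 WT/Y657* mice 0 of the 10 genes were called after the fast by edgeR's quasi-likelihood test, where 32.9% of all genes were, and 1 had an unadjusted p under 0.05 (Saa4, log2 fold change −0.56, adjusted p = 0.0805). Without mouse ALC_MT_866 Saa4 passed (−0.66, adjusted p = 0.0430). DESeq2 also called 0. The log2 fold changes ranged from −0.67 for Saa2 to 0.34 for Serpina3n. The difference in fasting response between genotypes was itself tested, and 3 of the 10 passed, where 4.35% of all genes were called and 2.59% with a positive difference: Saa3 (4.25, standard error 1.24, adjusted p = 0.0444), Apcs (1.84, standard error 0.52, adjusted p = 0.0369) and Saa4 (1.21, standard error 0.35, adjusted p = 0.0400), a positive value meaning a smaller fall in Pik3r1 WT/Y657* mice. Without mice ALC_WT_847 and ALC_WT_849 the count was 0. When 1 mouse was left out in turn it was 0 for 10 of the 24 mice in this comparison (fed wild-type ALC_WT_847 and ALC_WT_849, fasted wild-type ONF_WT_824, ONF_WT_825, ONF_WT_918, ONF_WT_919 and ONF_WT_920, fed Pik3r1 WT/Y657* ALC_MT_857, ALC_MT_868 and ALC_MT_869), 1 for 5 (fasted Pik3r1 WT/Y657* ONF_MT_806, ONF_MT_826, ONF_MT_921 and ONF_MT_923 and fed ALC_MT_859) and 5 without mouse ONF_WT_807. The fed levels of the 2 genotypes differ before the fast, and the difference of responses contains that difference.

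After refeeding, the median of Saa1 was 10.6 CPM in wild-type mice, against 20.2 in the fasted group, and 17.6 in Pik3r1 WT/Y657* mice, against 27.7. The median of Saa4 was 185 CPM in refed wild-type mice, against 129 in fasted ones, and 148 in refed Pik3r1 WT/Y657* mice, against 105. In wild-type mice 0 members were called between the fasted and refed groups with the quasi-likelihood test of edgeR, where 30.2% of all genes were, and 1 had an unadjusted p under 0.05. Saa2 was at −3.05 (adjusted p = 0.0677), and passed with edgeR's likelihood ratio test (adjusted p = 0.0298) and with DESeq2 (adjusted p = 0.0182). Saa1 was at −2.27 (adjusted p = 0.166). Both directions rest on mouse ONF_WT_807: without mice ONF_MT_806 and ONF_WT_807 Saa1 was at 1.56 and Saa2 at 0.87 (adjusted p = 0.246 and 0.551). Without mouse RF6_WT_828, Saa1 (−4.30, adjusted p = 0.0155), Saa2 (−4.60, adjusted p = 0.0149) and Orm2 (−2.91, adjusted p = 0.0373) passed, and without RF6_WT_828 and RF6_MT_898 Lcn2 did as well (−3.05, adjusted p = 0.0453). Apcs was at 0.72 (adjusted p = 0.139) and passed without mouse ONF_WT_807 (0.997, adjusted p = 0.0479). In Pik3r1 WT/Y657* mice 0 were called, where 31.3% of all genes were, and 1 had an unadjusted p under 0.05 (Saa4, 0.54, adjusted p = 0.0951). It passed in the libraries compared alone (adjusted p = 0.0277), and DESeq2 called 0. The difference in refeeding response between genotypes was called for 0 members, where 2.06% of all genes were, and 0 had an unadjusted p under 0.05, with 0 called by DESeq2.

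**Figure D4:**
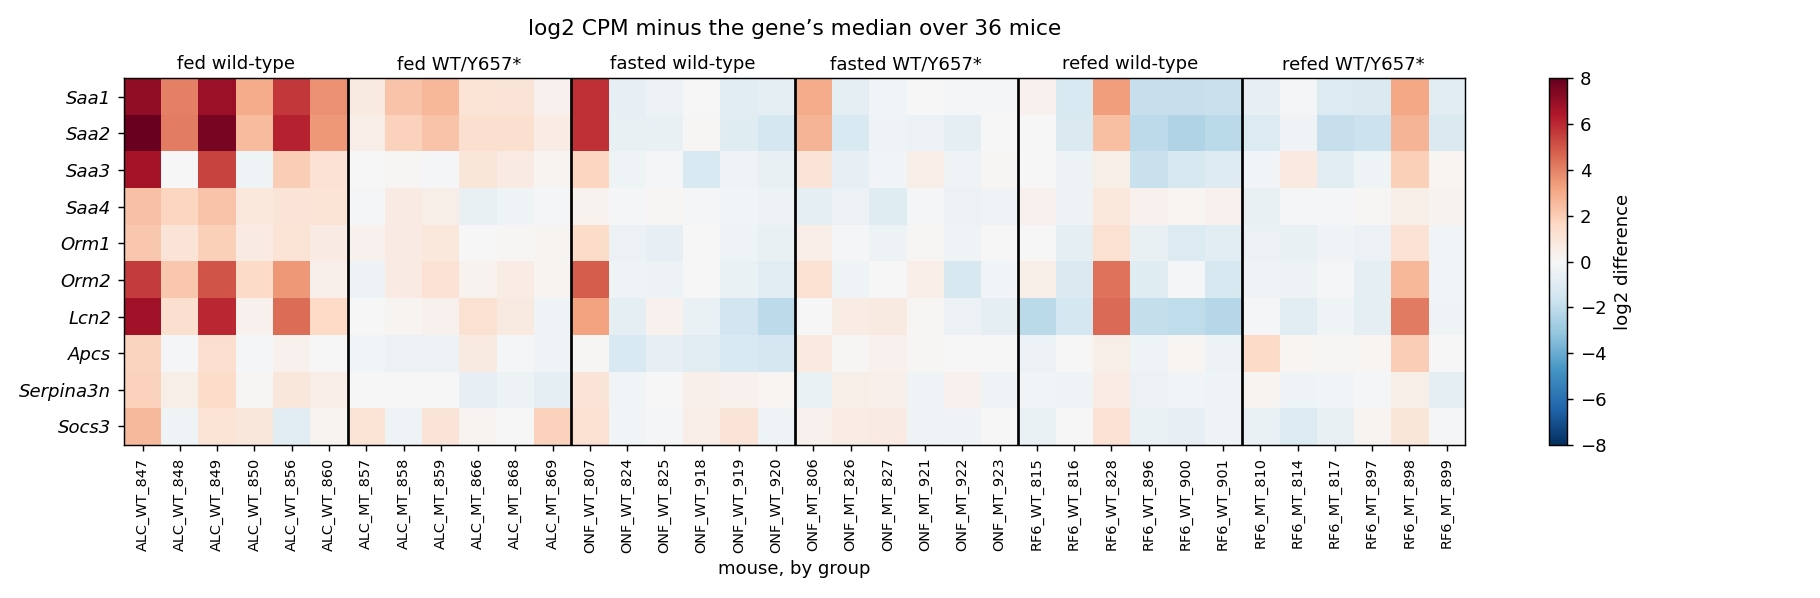
Level of the 10 genes in each of the 36 mice as log2 CPM minus the median of that gene over all mice (colour scale), with mice in columns ordered by group. The columns of ALC_WT_847, ALC_WT_849, ONF_WT_807, RF6_WT_828 and RF6_MT_898 are high for most of the genes, and ALC_WT_856 is high for Saa1, Saa2, Lcn2 and Orm2.

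Other positive acute-phase genes of the liver showed the fed difference as well. Of 24 such genes, all tested, 8 were called as lower and 0 as higher in fed Pik3r1 WT/Y657* mice, where 1.15% of all genes were called as lower. Of the 24 fold changes 23 were negative, and their median was −0.47 against 0.01 over all genes. Hp, which encodes the haemoglobin-binding protein haptoglobin, fell by 1.35 on the log2 scale (adjusted p = 0.0201). It was at 3223 to 10474 CPM in wild-type mice and 1797 to 2951 in Pik3r1 WT/Y657* mice, with no overlap, as for 0.574% of all genes in that direction. Steap4, a metalloreductase gene, fell by 1.78 (adjusted p = 0.0116). Mt2, which encodes a metallothionein, fell by 4.53 (adjusted p = 0.0196), but was at 89.8 CPM in mouse ALC_WT_847 and 52.5 in mouse ALC_WT_849 and at no more than 2.16 in any other fed mouse. The other 5 called were Lbp, Crp, Lrg1, Cfb and Mt1. Without mice ALC_WT_847 and ALC_WT_849, 0 of the 24 were called by edgeR, Hp was at −0.77 (adjusted p = 0.217), Steap4 at −0.69 (adjusted p = 0.224) and Mt2 at 0.24 (adjusted p = 0.940). In the fed libraries alone the count was also 0, and DESeq2 called 9. After the fast, with 13.1% of all genes called, 1 of the 24 was called as higher in Pik3r1 WT/Y657* mice, Serpina3k (0.57, adjusted p = 0.00428), a serine protease inhibitor gene of the same family as Serpina3n.

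**Figure D5:**
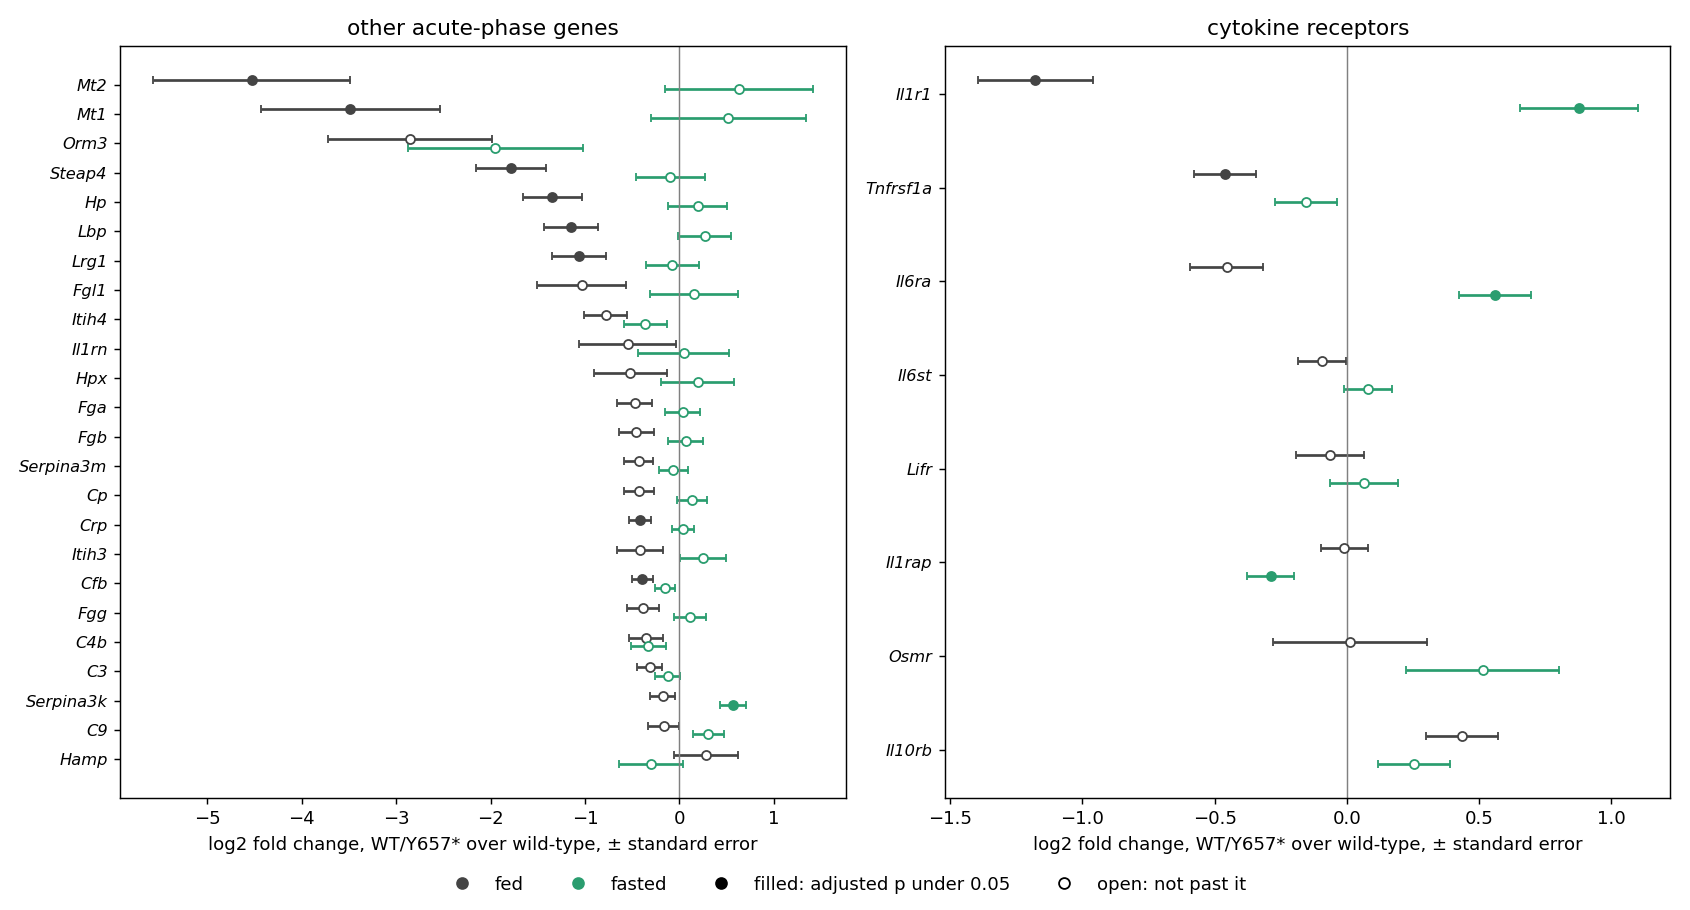
Log2 fold change between genotypes (Pik3r1 WT/Y657* over wild-type) of the 24 other acute-phase genes and the 8 receptor genes in the fed and fasted states, with the standard error from edgeR as a bar and filled points where the adjusted p was under 0.05. In the fed state 23 of the 24 acute-phase genes lie below 0, and Il1r1 lies below 0 in the fed and above it in the fasted state.

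Upstream of these genes, the receptors for interleukin-1 and interleukin-6 responded to fasting unequally in the genotypes. Of 8 receptor genes, Il1r1, the signalling receptor for interleukin-1, and Tnfrsf1a, the main receptor for tumour necrosis factor, were called as lower in fed Pik3r1 WT/Y657* mice (Il1r1 −1.18, adjusted p = 0.00425, and Tnfrsf1a −0.46, adjusted p = 0.0276). Of all genes 1.15% were called as lower in that state. Il1r1 was at 43.5 to 120 CPM in fed wild-type mice and 24.1 to 52.7 in fed Pik3r1 WT/Y657* mice. After the fast the order was reversed, at 16.1 to 28.1 CPM in wild-type mice and 28.2 to 48.1 in Pik3r1 WT/Y657* mice (0.88, adjusted p = 0.00823), with no overlap, as for 2.56% of all genes. Il6ra, the receptor subunit that binds interleukin-6, was also called as higher in fasted Pik3r1 WT/Y657* mice (0.56, adjusted p = 0.00538), and Il1rap, the co-receptor of Il1r1, as lower (−0.29, adjusted p = 0.0278). In the fasted state 13.1% of all genes were called in either direction. The difference in fasting response was called for Il1r1 (2.05, adjusted p = 0.000568) and Il6ra (1.01, adjusted p = 0.00256). Without mice ALC_WT_847 and ALC_WT_849 both remained called, at 1.66 (adjusted p = 0.00271) and 0.96 (adjusted p = 0.0114), whereas neither fed difference of Il1r1 and Tnfrsf1a did (adjusted p = 0.0841 and 0.351). With runs of mouse numbers as a covariate the differences were 1.18 (adjusted p = 0.0848) and 0.74 (adjusted p = 0.131).

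Of 13 genes for the kinases and transcription factors of the pathway, among them Jak1, Stat3, Rela and Cebpb, 0 were called between genotypes in the fed state by edgeR. In the fasted state 2 of the 13 were called, a share near the 13.1% of all genes. Cebpd, a C/EBP factor induced in the acute phase, was higher in Pik3r1 WT/Y657* mice (1.23, adjusted p = 0.000810), at 4.52 to 12.3 CPM against 2.44 to 3.72, and Cebpa, the C/EBP factor of differentiated hepatocytes, was lower (−0.51, adjusted p = 0.00217). Of 10 tested feedback and NF-kB target genes 1 was called between genotypes, Vcam1, an adhesion molecule gene, in the fasted state (1.31, adjusted p = 0.0258), a share below that of all genes. Of 10 cytokine genes 3 passed the filter (Il1a, Il1b and Tnf) and 0 were called between genotypes in any state. Il6 had at most 4 counts in a mouse and was at 0 in 21 mice, and Il22 and Il17a were at 0 in all 36. Of 9 genes that fall in the acute phase, Igf1 was called as higher in fed Pik3r1 WT/Y657* mice (0.32, adjusted p = 0.0378) and after the fast (0.25, adjusted p = 0.0493), and Serpina6, which encodes the corticosteroid-binding globulin, as lower after the fast (−1.004, adjusted p = 0.00265), as was Hsd11b1 (−0.51, adjusted p = 0.0118).

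Markers of other cell types moved with the member genes in some of the high mice and not in others, and their part in the results was not tested. The summed CPM of 7 Kupffer cell and macrophage markers was 221 to 310 in fed wild-type mice and 209 to 721 in fed Pik3r1 WT/Y657* mice. Among fed wild-type mice it was highest in mouse ALC_WT_849 (310) and next highest in mouse ALC_WT_847 (275). It was 479 in mouse ONF_WT_807, 440 in mouse ONF_MT_806 and 497 in mouse RF6_WT_828. Each of these, like mouse RF6_MT_898, had the highest sum of its group. The highest sum of the fed Pik3r1 WT/Y657* group, 721, was in mouse ALC_MT_868, with Saa1 at 61.4 CPM. All 7 macrophage markers had positive fold changes in fed Pik3r1 WT/Y657* mice, with a median of 0.77 against 0.01 over all genes. The lowest adjusted p was 0.0652 (Cd5l, edgeR), so 0 were called, as in the other states. The 4 lymphocyte markers tested were positive there too, with a median of 1.63. The summed CPM of 8 neutrophil markers was 38.7 in mouse RF6_MT_898, 25.7 in mouse RF6_WT_828, 17.2 in mouse ONF_MT_806 and 7.51 in mouse ONF_WT_807, each the highest of its group. It was 7.94 in mouse ALC_WT_847 and 6.14 in mouse ALC_WT_849, within the range of the fed wild-type group (4.89 to 10.5). The fed Pik3r1 WT/Y657* mice ALC_MT_869 and ALC_MT_866 had sums of 23.7 and 23.5, with Saa1 at 36.8 and 63.2 CPM. Ly6g, the defining neutrophil marker, was at 0 in 35 mice. Of the other marker lists, Nkg7 (lymphocytes) and Dcn (stellate cells and fibroblasts) were called as higher in fed Pik3r1 WT/Y657* mice, Cxcr2 (neutrophils), Dcn, Rgs5 and Lyve1 (endothelium) in fasted ones, and 0 markers of hepatocytes, bile duct cells or adipocytes between genotypes. Nkg7 was very low, with a median of 0.0875 CPM in fed wild-type mice and 0.952 in fed Pik3r1 WT/Y657* mice.

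The genes whose levels went most closely with the members across mice included several other secreted liver proteins. The members' log2 CPM, each minus its group mean, were averaged in each of the 36 mice, and the 10 non-member genes with the highest Pearson correlation to that mean were listed. They were Itih4 (r = 0.94, Spearman rho = 0.83), Fgl1 (0.93, 0.81), Hp (0.93, 0.67), Hpx (0.92, 0.77), Serping1 (0.86, 0.69), Tmem176b (0.84, 0.64), Lbp (0.83, 0.57), Itih3 (0.83, 0.61), Tmem176a (0.83, 0.67) and Atp11a (0.83, 0.55). Itih4, Fgl1, Hp, Hpx, Lbp and Itih3 were also on the list of other acute-phase genes. Fgl1 encodes a fibrinogen-like hepatokine, Hpx the haem carrier haemopexin and Serping1 the C1 inhibitor. Without the 2 mice farthest from the median (ONF_WT_807 and RF6_WT_828) the Pearson coefficients were 0.73 to 0.92, with the high mice ALC_WT_847, ALC_WT_849 and RF6_MT_898 kept in. The points share libraries and their scaling, and the correlations are a description. Hpx reached 13019 CPM and Itih4 5936 in their highest mice. Among the members, the correlation with their own mean ran from 0.60 for Saa4 and 0.61 for Socs3 to 0.96 for Orm2 and Saa2.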

How the data were processed

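Total RNA from the livers of 36 mice was sequenced as single reads from stranded libraries, and the labels gave each mouse its genotype, feeding state and number. Each group's 6 samples are separate mice. The authors deposited 1 estimated count for each gene in each mouse, unnormalised. The submitters' processing notes name Cuffdiff, SAMtools, featureCounts, edgeR and the build mm9, and give no versions. Gene positions matched GRCm38, from which all printed coordinates come. The labels' protocol mentions human genes in the counting step, and the mouse identifiers of the table were used as they stand. A second table, of values the authors fitted, was left out because it carries no spread between mice. Values that were not whole numbers (3.64% of those above 0) were rounded.

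The fit used edgeR 4.0.16 in R 4.3.3 on all 36 libraries, with filterByExpr (13945 genes), TMM scaling, 1 coefficient per group, and robust glmQLFit and glmQLFTest. Two-sided p-values received the Benjamini-Hochberg adjustment over the 13945 genes, and calls were made at 0.05. Log2 CPM had a prior count of 2. Groups did not overlap where every mouse of one lay above every mouse of the other. Levels per kilobase used the lowest-numbered protein-coding transcript in the consensus coding set of GENCODE M21.

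Other settings tried were DESeq2 1.42.0, the edgeR likelihood ratio test that the labels name for the authors' comparison, relative log expression (RLE) scaling, scaling without the members, no filter, only the libraries compared, runs of mouse numbers as a covariate, an exact permutation test on log2 CPM, and leaving out each mouse. Leaving out several mice together was added after seeing the data. The fit was tested on simulated counts first. The text names all 10 members, called genes of the other lists with at most 3 more per comparison of genotypes by smallest p, and the 10 genes closest to the members by correlation. Members and lists were chosen with earlier results of these data known.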

Additional observations from a re-analysis of the deposited data

Results flagged for a closer look

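Within groups of 6 mice, single mice stood apart from the rest for many members. The gap from the highest or the lowest mouse to its neighbour was divided by the range of the group. It was above Dixon's critical value for 6 samples in 24 of the 60 combinations of member and group, against 6.47% of 83666 such combinations over all genes tested. In each of the 24 the mouse was the highest of its group. For normally distributed values chance gives about 1 in 20. Members share mice, and these genes were followed per mouse because single high mice were already known, so the count is a description. The fasted wild-type mouse ONF_WT_807 stood apart for Saa1 (1663 CPM), Saa2 (1130 CPM), Orm1 (1074 CPM), Orm2 (197 CPM), Apcs (75.0 CPM), Lcn2 (43.4 CPM) and Saa3 (14.5 CPM). The refed wild-type mouse RF6_WT_828 did so for Orm1 (905 CPM), Serpina3n (364 CPM), Saa1 (295 CPM), Orm2 (140 CPM), Lcn2 (110 CPM), Saa2 (106 CPM) and Socs3 (17.1 CPM). The refed Pik3r1 WT/Y657* mouse RF6_MT_898 stood apart for Orm1 (874 CPM), Saa1 (249 CPM), Saa2 (130 CPM), Lcn2 (82.2 CPM), Orm2 (43.8 CPM) and Saa3 (16.7 CPM), and the fasted Pik3r1 WT/Y657* mouse ONF_MT_806 for Saa1 (228 CPM) and Saa2 (132 CPM). In the fed groups this held for Socs3 in wild-type mouse ALC_WT_847 (46.7 CPM) and Apcs in Pik3r1 WT/Y657* mouse ALC_MT_866 (114 CPM). Mice ALC_WT_847 and ALC_WT_849 were both high, so neither stood apart from the next mouse for the other members.

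The log2 response to fasting differed between genotypes, by edgeR's test of the difference itself, for 3 members, Saa3 (4.25, adjusted p = 0.0444), Apcs (1.84, adjusted p = 0.0369) and Saa4 (1.21, adjusted p = 0.0400). Among the other acute-phase genes it differed for Mt2 (5.16, adjusted p = 0.0217), Hp (1.54, adjusted p = 0.0396), Lbp (1.41, adjusted p = 0.0355) and Serpina3k (0.75, adjusted p = 0.0192). It also differed for the receptor genes Il1r1 (2.05, adjusted p = 0.000568) and Il6ra (1.01, adjusted p = 0.00256). Serpina6, which falls in the acute phase, had a difference of −1.53 (adjusted p = 0.00456), the hepatocyte marker Hnf4a one of 0.41 (adjusted p = 0.0333) and the B cell marker Ms4a1 one of −2.79 (adjusted p = 0.0394). Ms4a1 was very low, with a median of 0.219 CPM in fed and 1.03 in fasted wild-type mice. The response to refeeding differed for Il6ra (−0.73, adjusted p = 0.0370).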

How the results depend on the processing

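No paired analysis was possible because the mouse numbers are not shared between groups. A covariate for runs of mouse numbers could not be fitted to the fasting responses within a genotype. The 4 members called between fed genotypes became 7 with the likelihood ratio test and with DESeq2, 1 without mice ALC_WT_847 and ALC_WT_849, and 0 in the fed libraries alone, with the covariate, by exact permutation, and without mice ALC_WT_847, ALC_WT_849 and ALC_WT_856 (3 to 5 leaving out 1 mouse). Exact permutation called 0 of all genes in this comparison, so its count of members could not have been higher. With the covariate the fed comparison rests on the 1 run of mouse numbers that holds both genotypes, and no conclusion is drawn from its count. The shares of all genes called under the other settings are not given here. In the fasted state 0 became 1 with the likelihood ratio test, DESeq2 and the fasted libraries alone (0 to 1 leaving out 1 mouse, 1 being without mouse ONF_WT_807), and in the refed state it was 0 to 0. For fasting in wild-type mice 5 became 1 without mice ALC_WT_847 and ALC_WT_849, with or without ALC_WT_856, 9 without ONF_MT_806 and ONF_WT_807, 7 without all of ALC_WT_847, ALC_WT_849, ONF_MT_806 and ONF_WT_807, 7 with the likelihood ratio test and 6 with DESeq2 (3 to 9 leaving out 1 mouse). For fasting in Pik3r1 WT/Y657* mice the count was 0 to 1. For refeeding in wild-type mice 0 became 1 with the likelihood ratio test, DESeq2 and without ONF_MT_806 and ONF_WT_807, and 4 without RF6_WT_828 and RF6_MT_898 (0 to 3 leaving out 1 mouse, 3 being without RF6_WT_828). In Pik3r1 WT/Y657* mice 0 became 1 in the libraries compared alone (0 to 0 leaving out 1 mouse). The 3 differences in fasting response became 1 in the libraries compared alone and 0 with no filter, with the covariate, and without mice ALC_WT_847 and ALC_WT_849, also when ALC_WT_856, or ONF_MT_806 and ONF_WT_807, were left out too (0 to 5 leaving out 1 mouse). For refeeding they were 0 to 0.

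Directions turned as follows. The fed difference of Socs3 became 0.92 with the covariate, 0.68 without ALC_WT_847 and ALC_WT_849, 0.47 without ALC_WT_856 as well, and 0.016 in log2 CPM (−0.58 to 0.43 leaving out 1 mouse), and that of Apcs 0.019 without ALC_WT_847, ALC_WT_849 and ALC_WT_856. The fasted differences of Saa1, Saa2 and Orm2 became 0.30, 0.11 and 0.27 without ONF_MT_806 and ONF_WT_807 (−3.54 to 1.52, −3.82 to 1.37 and −2.59 to 0.61 leaving out 1 mouse). The wild-type fasting responses of Orm2 and Socs3 became 0.17 and 0.34 without ALC_WT_847 and ALC_WT_849, and 0.94 and 0.13 without ALC_WT_856 as well, and that of Socs3 0.13 without ALC_WT_847, ALC_WT_849, ONF_MT_806 and ONF_WT_807 (−0.80 to 0.092 leaving out 1 mouse). The wild-type refeeding responses of Saa1, Saa2 and Orm2 became 1.56, 0.87 and 2.36 without ONF_MT_806 and ONF_WT_807 (−4.30 to 1.56, −4.60 to 0.87 and −2.91 to 2.36 leaving out 1 mouse). That of Lcn2 became −3.05 without RF6_WT_828 and RF6_MT_898, −1.21 without ONF_MT_806 and ONF_WT_807 as well, and −0.61 in log2 CPM (−3.04 to 2.70 leaving out 1 mouse). Of the other log2 fold changes, 291 kept direction and side of the threshold, 50 lost the call and 29 gained it. The causes were not tested, beyond the mice left out.

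The lowest count of a member in any mouse was 14. What limited the calls was not tested.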
